A study of Mus musculus with 30 samples.

Results

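Messenger RNA levels and histone acylation peaks were examined for 9 genes of the Hedgehog signalling pathway, Ptch1, Smo, Gli1, Gli2, Gli3, Gas1, Cdon, Boc and Hhip. They were picked by gene symbol, and each matched a single row among the 53974 genes of the deposited expression table. All 9 also had a row in a comparison table of forebrain explants, and 8 passed the filter on low values that preceded testing in cultured cells. The cultured cells were neural stem/progenitor cells (NSPCs) of C57BL/6 mice, taken from the forebrain of E13.5 embryos and expanded in medium with EGF and FGF to passages P1-P3. For 24 h they received 10 mM crotonate, 1 µM MS-275 or DMSO as the control, with 4 biological replicate RNA libraries in each group. Crotonate is a short-chain fatty acid that cells turn into the donor of histone crotonylation, and MS-275 (entinostat) is an inhibitor of class I histone deacetylases. Whether crotonate was given with DMSO is not stated in the sources used here. Forebrain explants of ICR mice at the same stage gave 3 crotonate and 3 control libraries, labelled as polyA RNA, and their dose and treatment time are not given in the sources used here. Untreated C57BL/6 forebrain at that stage gave 1 RNA library. Chromatin immunoprecipitation used pan-specific antibodies against crotonyl-lysine (Kcr) or acetyl-lysine (Kac) in NSPCs of the 3 treatments, and antibodies against H3K9cr or H3K9ac in untreated forebrain, with 1 library for each antibody and condition.

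Hedgehog ligands are secreted proteins, of which Sonic hedgehog (Shh) patterns the ventral forebrain and keeps progenitors dividing. Without ligand the receptor Ptch1 holds the membrane protein Smo inactive, and the transcription factors Gli2 and Gli3 are processed into repressors at the primary cilium. Ligand bound to Ptch1 and the co-receptors Cdon, Boc and Gas1 frees Smo, full-length Gli proteins enter the nucleus, and Ptch1, Hhip and Gli1 are transcribed, which makes these genes common readouts of the pathway. Hhip binds ligand at the cell surface and limits its spread, and Gli3 acts mostly as a repressor in the dorsal forebrain.

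Depth is unknown for all libraries, because the expression table holds TPM, transcript abundance scaled by gene length and library total, and no counts. All 12 markers of neural stem cells and radial glia reached 1 TPM in control NSPCs. Their summed level was 9127 to 10024 TPM with crotonate, 13719 to 14378 TPM with MS-275 and 9733 to 10269 TPM in the control. Most of this sum was Fabp7 (6898 TPM with MS-275, 4946 TPM in the control) and Vim (5970 and 3671 TPM). Of the 12, 1 was higher and 1 lower with crotonate, and 4 were higher and 3 lower with MS-275 (limma adjusted p under 0.05). Among those lower with MS-275 were Nes and Pax6. The ventral forebrain genes Nkx2-1, Lhx6 and Lhx8 were under 1 TPM in every NSPC library, and 4 of 8 microglial and 5 of 9 endothelial and pericyte markers likewise. Markers of the oligodendrocyte lineage, by level mostly Olig1 and Olig2, summed to 1905 to 2177 TPM with crotonate, 2891 to 3177 TPM with MS-275 and 1743 to 1944 TPM in the control. The 15 mitotic genes measured beside them summed to 1481 to 1708 TPM with crotonate, 823 to 955 TPM with MS-275 and 2324 to 2449 TPM in the control, so the groups did not overlap. Markers of postmitotic neurons were higher for 10 of 13 with crotonate and 11 of 13 with MS-275 and lower for 2 and 1 (limma adjusted p under 0.05), and 2 of the 13 reached 1 TPM in fewer than 4 control libraries. They summed to 877 to 950 TPM with crotonate, 1132 to 1181 TPM with MS-275 and 977 to 1061 TPM in the control. Astrocyte markers were higher for 4 of 7 with each treatment, and summed to 179 to 221 TPM with crotonate, 226 to 281 TPM with MS-275 and 149 to 201 TPM in the control. Over all tested genes 32.3% were higher and 15.9% lower with crotonate, and 37.4% and 27.6% with MS-275. The part of these shifts in the values below was not tested. In such bulk samples, fewer cells of a type and less RNA per cell cannot be told apart.

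The promoters that the crotonate Kcr peaks touched are shown because they place the peaks relative to the annotated start of each gene. RefSeq promoter windows (GRCm38.p6, 250 bases before to 50 after the annotated start, 300 bases in all) were found for 7 of the 9 genes, all but Gli1 and Boc. Of these, 5 overlapped a Kcr peak of crotonate-treated NSPCs. Each is written 5′ to 3′ on the strand of its gene, with bases under such a peak in capitals.
Ptch1 chr13:63565686-63565985 (- strand): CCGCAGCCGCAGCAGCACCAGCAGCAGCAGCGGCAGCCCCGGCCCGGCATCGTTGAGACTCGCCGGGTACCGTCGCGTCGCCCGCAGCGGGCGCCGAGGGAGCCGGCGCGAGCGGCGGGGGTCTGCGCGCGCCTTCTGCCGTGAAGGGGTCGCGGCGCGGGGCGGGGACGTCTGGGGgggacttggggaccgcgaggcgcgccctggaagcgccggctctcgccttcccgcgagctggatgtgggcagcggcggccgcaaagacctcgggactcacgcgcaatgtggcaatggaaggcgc
Gli3 chr13:15463473-15463772 (+ strand): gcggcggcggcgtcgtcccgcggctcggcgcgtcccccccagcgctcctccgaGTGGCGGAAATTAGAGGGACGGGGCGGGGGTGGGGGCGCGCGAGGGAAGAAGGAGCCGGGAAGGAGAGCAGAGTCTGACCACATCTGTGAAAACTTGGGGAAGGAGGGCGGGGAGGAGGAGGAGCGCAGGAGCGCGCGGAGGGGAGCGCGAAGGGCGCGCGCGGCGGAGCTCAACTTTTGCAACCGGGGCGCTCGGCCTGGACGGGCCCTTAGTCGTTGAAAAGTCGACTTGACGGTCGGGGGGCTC
Hhip chr8:80057959-80058258 (- strand): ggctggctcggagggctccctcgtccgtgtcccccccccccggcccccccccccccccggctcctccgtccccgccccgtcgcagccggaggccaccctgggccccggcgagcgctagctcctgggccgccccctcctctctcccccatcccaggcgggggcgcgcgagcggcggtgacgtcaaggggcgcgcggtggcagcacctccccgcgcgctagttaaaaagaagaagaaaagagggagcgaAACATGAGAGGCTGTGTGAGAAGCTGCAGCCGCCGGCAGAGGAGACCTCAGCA
Smo chr6:29735247-29735546 (+ strand): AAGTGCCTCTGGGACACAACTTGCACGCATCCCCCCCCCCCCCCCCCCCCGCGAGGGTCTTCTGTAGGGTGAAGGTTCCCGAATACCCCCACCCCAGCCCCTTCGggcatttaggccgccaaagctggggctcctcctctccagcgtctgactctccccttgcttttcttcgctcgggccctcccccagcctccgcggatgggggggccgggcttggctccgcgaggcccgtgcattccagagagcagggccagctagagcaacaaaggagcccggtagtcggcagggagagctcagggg
Gli2 chr1:119053570-119053869 (- strand): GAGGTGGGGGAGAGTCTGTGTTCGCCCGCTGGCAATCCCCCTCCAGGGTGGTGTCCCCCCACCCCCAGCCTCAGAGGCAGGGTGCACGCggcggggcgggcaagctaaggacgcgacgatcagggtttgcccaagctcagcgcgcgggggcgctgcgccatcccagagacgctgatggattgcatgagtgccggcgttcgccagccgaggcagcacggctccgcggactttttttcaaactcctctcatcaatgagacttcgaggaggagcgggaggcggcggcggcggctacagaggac
In the Ptch1 window 177 bases lay under a crotonate Kcr peak and none under an MS-275 or control Kcr peak. The Gli3 window had 247 bases under a crotonate Kcr peak and the Hhip window 53, again with none under a Kcr peak of either other treatment. The Smo window had 105 such bases with crotonate, none with MS-275 and 125 in the control, and the Gli2 window had 89, 79 and 99 in that order. Acetylation differed from this at Ptch1 and Gli3. Kac peaks covered 300 bases of the Ptch1 window with crotonate, none with MS-275 and 300 in the control, and 300, none and 294 bases of the Gli3 window. The Gli2 window had 104 bases under a Kac peak with crotonate, 74 with MS-275 and 83 in the control, close to its Kcr, the Smo window had 15, none and 89, and the Hhip window had none in any. These windows are rich in CG dinucleotides, with 47 in Ptch1, 39 in Gli3, 30 in Hhip, 28 in Gli2 and 17 in Smo, against a median of 7 over all promoters of the table. The Gli binding motif GACCACCCA, or TGGGTGGTC on the other strand, was in none of the 7 windows and in 83 of 32851 RefSeq promoters (0.253%), which describes these windows alone.

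In control NSPCs Gas1, Smo, Cdon and Ptch1 were the most abundant of the 9 transcripts per length. Mean levels in control cells ran from Gas1 (47.2 TPM) through Smo (38.0 TPM), Cdon (36.1 TPM) and Ptch1 (24.0 TPM) to Gli3 (4.02 TPM), Boc (3.13 TPM), Gli2 (1.67 TPM), Hhip (1.58 TPM) and Gli1 (0.0259 TPM). The libraries of Smo and Cdon overlapped in this order, as did those of Boc and Gli2 and of Gli2 and Hhip, and the other neighbours were separate. With crotonate and with MS-275 Cdon moved to the top, at a mean of 52.2 TPM and 77.0 TPM. Crotonate libraries of Cdon overlapped those of Gas1 (48.1 TPM), whereas with MS-275 Cdon stood clear of Gas1 (32.1 TPM).

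**Figure D1:**
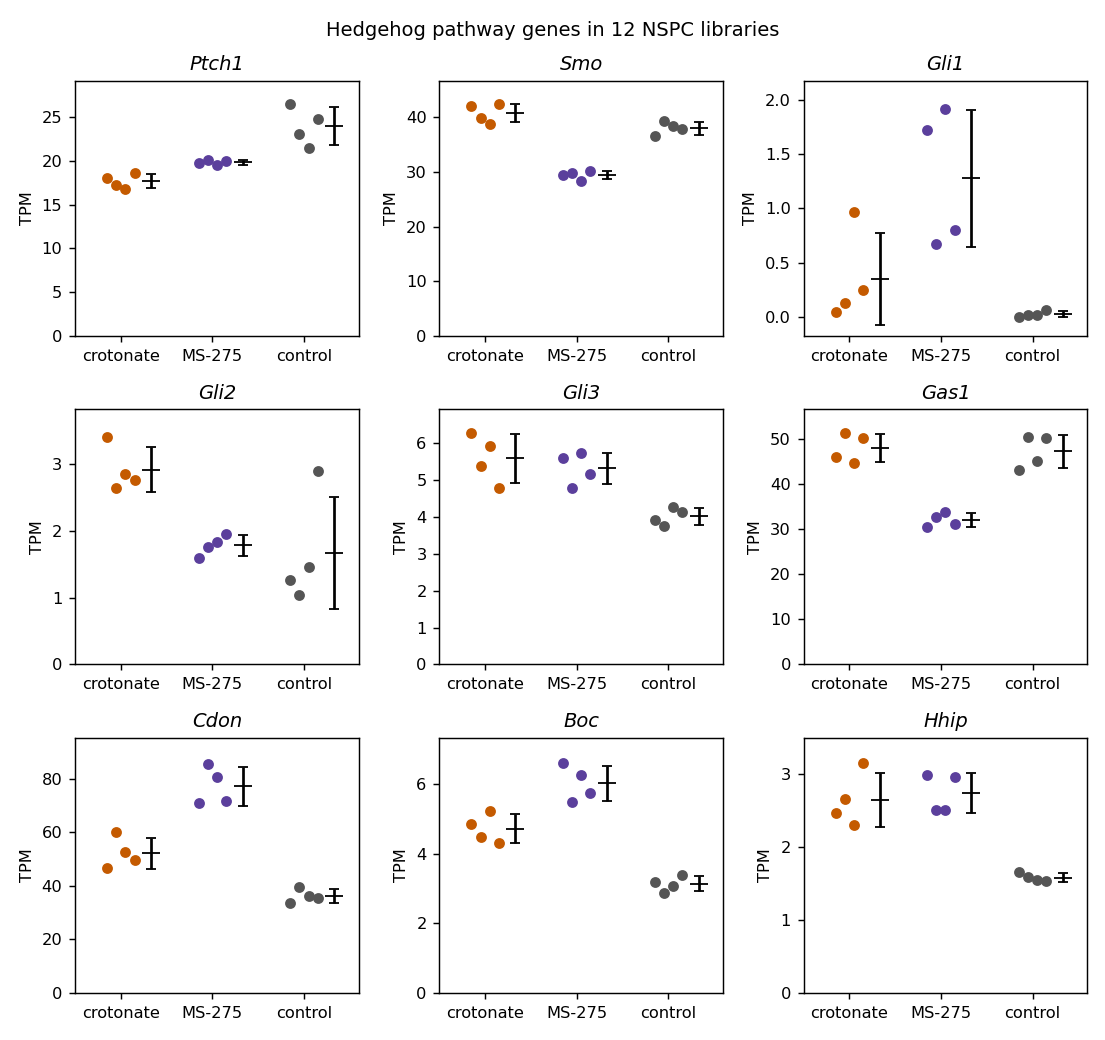
Level in TPM (vertical axis, linear, from 0 except for Gli1, where the SD bar of crotonate reaches below 0) of the 9 genes in 4 crotonate, 4 MS-275 and 4 control NSPC libraries, with a point for each library and a bar for the mean ± SD beside it. Ptch1 lies between 16.8 and 18.6 TPM with crotonate and between 21.5 and 26.5 TPM in the control, while Cdon, Boc, Gli3 and Hhip lie higher in both treatments than in the control.

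Relative to the control, crotonate was accompanied by more RNA of Cdon, Boc, Hhip, Gli3 and Gli2 and by less of Ptch1. By limma with Benjamini-Hochberg adjustment over 14857 genes, 5 of the 8 tested genes were higher and 1 was lower at an adjusted p under 0.05. Over all tested genes 48.1% changed (32.3% higher and 15.9% lower), so a count of 6 of 8 is not far above the background. The median log2 difference was 0.43 for the 8 genes and 0.09 for all tested genes. With MS-275, Cdon, Boc, Hhip and Gli3 were higher than in the control and Gas1, Smo and Ptch1 were lower. That makes 4 higher and 3 lower of 8, against 65.1% of all genes changed (37.4% higher and 27.6% lower) and a median of 0.22 against 0.08. Both treatments were compared with the same 4 control libraries, so these sets of values are not independent.

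Ptch1, the receptor and a target of the pathway, had 18.1, 17.3, 16.8 and 18.6 TPM with crotonate, 19.8, 20.1, 19.5 and 20.0 TPM with MS-275, and 26.5, 23.1, 21.5 and 24.8 TPM in the control. All 8 treated libraries were below all 4 control libraries. Its mean was 17.7 ± 0.818 TPM with crotonate and 19.8 ± 0.242 TPM with MS-275, against 24.0 ± 2.18 TPM in the control (SD, n = 4 each), or 0.738 and 0.827 times the control mean. On the log2(TPM + 1) scale it fell by 0.41 with crotonate (SE 0.0626, limma adjusted p = 1.6e-04) and by 0.26 with MS-275 (adjusted p = 0.0029). The libraries of the 2 groups did not overlap for 5 of the 8 genes with crotonate, against 44.2% of all tested genes, and for 7 with MS-275, against 58.5%.

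Cdon, a co-receptor of the immunoglobulin superfamily, had 46.5, 60.1, 52.5 and 49.5 TPM with crotonate, 70.8, 85.5, 80.4 and 71.5 TPM with MS-275, and 33.4, 39.6, 36.1 and 35.3 TPM in the control. The 3 groups did not overlap, with MS-275 highest and the control lowest. The log2 difference from the control was 0.51 with crotonate (SE 0.0843, limma adjusted p = 3.1e-04) and 1.07 with MS-275 (adjusted p = 2.4e-07), or 1.44 and 2.13 times the control mean. Boc, a relative of Cdon that binds ligand in the same way, had 4.86, 4.47, 5.22 and 4.31 TPM with crotonate, 6.59, 5.48, 6.26 and 5.75 TPM with MS-275, and 3.18, 2.88, 3.08 and 3.39 TPM in the control. Its libraries followed the order seen for Cdon, again without overlap between groups. Boc rose by 0.47 with crotonate (limma adjusted p = 7.4e-04) and by 0.76 with MS-275 (adjusted p = 6.2e-06), or to 1.51 and 1.92 times the control mean.

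Gas1, a membrane-anchored co-receptor, differed between the treatments. It had 46.1, 51.3, 44.7 and 50.1 TPM with crotonate, 30.5, 32.7, 33.9 and 31.2 TPM with MS-275, and 43.2, 50.4, 45.2 and 50.2 TPM in the control. Crotonate and control libraries overlapped, while every MS-275 library was below all others. The difference from the control was 0.03 with crotonate (SE 0.0634, limma adjusted p = 0.766), and Gas1 fell by 0.54 with MS-275 (adjusted p = 8.2e-06), to 0.679 times the control mean. Hhip, the ligand-binding inhibitor, had 2.47, 2.66, 2.31 and 3.16 TPM with crotonate, 2.99, 2.51, 2.51 and 2.97 TPM with MS-275, and 1.66, 1.59, 1.55 and 1.53 TPM in the control. Both treated groups lay above the control and overlapped each other. Hhip rose by 0.49 with crotonate (SE 0.104, limma adjusted p = 0.00177) and by 0.53 with MS-275 (adjusted p = 5.8e-04), or to 1.67 and 1.74 times the control mean.

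Smo, the transducer that Ptch1 restrains, had 42.0, 39.9, 38.8 and 42.4 TPM with crotonate, 29.4, 29.8, 28.4 and 30.1 TPM with MS-275, and 36.5, 39.3, 38.5 and 37.8 TPM in the control. Crotonate and control libraries overlapped, and the MS-275 libraries were the lowest 4. The log2 difference from the control was 0.10 with crotonate (SE 0.043, limma adjusted p = 0.0795), and Smo fell by 0.36 with MS-275 (adjusted p = 1.0e-05), to 0.773 times the control mean. The sign of the crotonate value depended on scaling, being -0.03 after median-of-ratios scaling.

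Gli3, the main repressor among the Gli factors, had 6.27, 5.37, 5.93 and 4.77 TPM with crotonate, 5.58, 4.79, 5.73 and 5.16 TPM with MS-275, and 3.91, 3.76, 4.27 and 4.13 TPM in the control. All treated libraries were above all control libraries, and the treated groups overlapped. Gli3 rose by 0.39 with crotonate (SE 0.0913, limma adjusted p = 0.00384) and by 0.33 with MS-275 (adjusted p = 0.00656), or to 1.39 and 1.32 times the control mean. A long non-coding RNA, Gm6556, overlaps the start of Gli3, and the library kit named in the labels is not stated to keep strand, so their reads cannot be told apart there.

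Gli2, the main activator, had 3.41, 2.65, 2.86 and 2.77 TPM with crotonate, 1.59, 1.76, 1.83 and 1.96 TPM with MS-275, and 1.26, 1.04, 1.46 and 2.90 TPM in the control. Control replicate 4, at 2.90 TPM, lay within the crotonate range, so the groups overlapped. Gli2 rose by 0.60 with crotonate (SE 0.175, limma adjusted p = 0.0133), to 1.75 times the control mean. With MS-275 its difference was 0.11 (adjusted p = 0.613), and without control replicate 4 it was 0.31 (adjusted p = 0.0425).

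Gli1, itself induced by Gli activators, stayed too low for the filter of 1 TPM in at least 4 of the 12 libraries. It had 0.0450, 0.125, 0.966 and 0.246 TPM with crotonate, 1.72, 0.667, 1.91 and 0.800 TPM with MS-275, and 0, 0.0202, 0.0198 and 0.0635 TPM in the control. All MS-275 libraries were above all control libraries, while crotonate overlapped both other groups. In a test chosen after its values were seen, an exact two-sided permutation test over libraries gave p = 0.0286 for MS-275 against control. That is the smallest p that 4 against 4 libraries allow when taken as unpaired. The same exact test gave p = 0.0571 for crotonate against control and p = 0.0857 for MS-275 against crotonate. A limma fit without the filter gave a log2 difference of 1.11 for MS-275 against control (adjusted p = 0.00173) and 0.34 for crotonate against control (adjusted p = 0.339). The neighbouring gene Arhgap9 overlaps one end of Gli1, and how reads there were shared was not tested.

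Several values depended on scaling. Across all tested genes the median log2 difference from the control was 0.09 with crotonate, and -0.03 after median-of-ratios scaling or -0.05 after quantile normalization. For MS-275 these medians were 0.08, -0.01 and -0.05. After quantile normalization the crotonate differences of Gli2 (0.17, adjusted p = 0.435), Gli3 (-0.03, adjusted p = 0.781), Boc (0.01, adjusted p = 0.931) and Hhip (0.07, adjusted p = 0.599) no longer passed limma's threshold. Those of Ptch1 (-0.52, adjusted p = 3.0e-05) and Cdon (0.49, adjusted p = 5.9e-04) did pass. With MS-275, Gli3 (-0.13, adjusted p = 0.22) and Hhip (0.04, adjusted p = 0.782) lost their calls in that setting, and Boc kept its own at 0.29 (adjusted p = 0.00909). Median-of-ratios scaling ended no call among the 9 genes in the 3 contrasts, and turned the crotonate values of Smo (-0.03) and Gas1 (-0.10), which passed in neither setting.

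**Figure D2:**
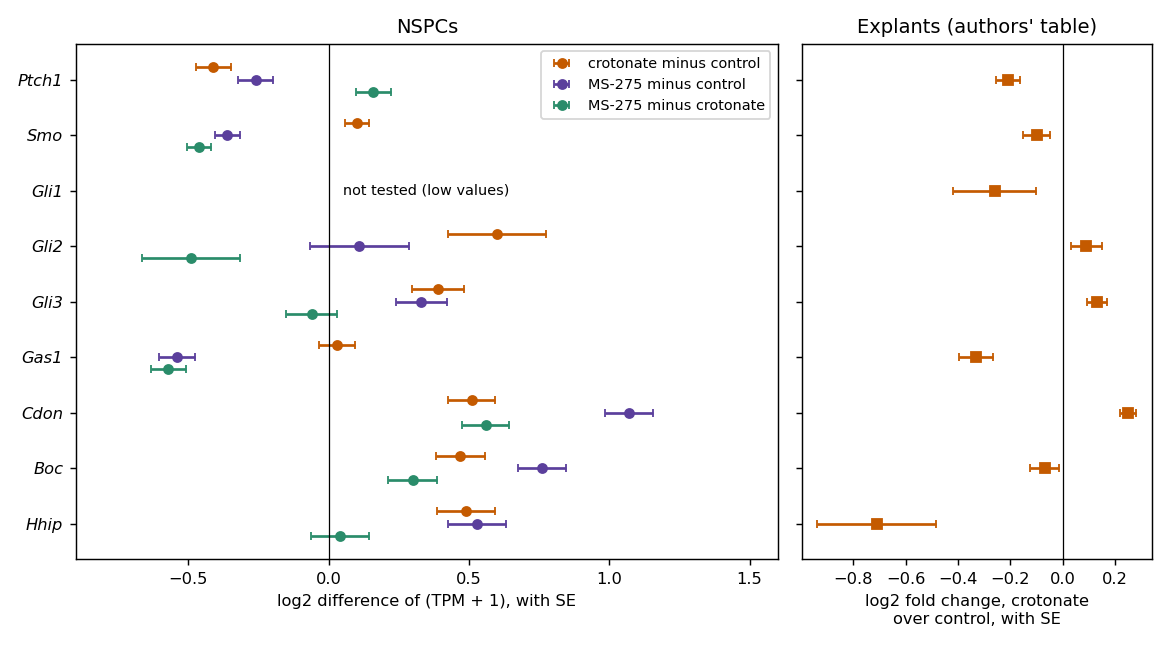
Left, log2 difference of (TPM + 1) with its SE for the 8 tested genes in 3 NSPC contrasts from limma, with Gli1 marked as not tested. Right, log2 fold change of crotonate over control in explants with its SE for all 9 genes from the authors' deposited table. Cdon lies at 0.51 with crotonate and 1.07 with MS-275 in NSPCs, and Ptch1 lies below 0 in both NSPC contrasts with the control and at -0.21 in the explants.

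Set directly against each other, MS-275 cells held more Cdon and Boc RNA and less Smo, Gas1 and Gli2 RNA than crotonate cells. Of the 8 tested genes 2 were higher and 3 lower, against 46.7% of all tested genes changed (19.3% higher and 27.4% lower), and the median difference was -0.01 for the 8 genes and -0.04 for all. The log2 difference, MS-275 minus crotonate, was 0.56 for Cdon (limma adjusted p = 1.8e-04) and 0.30 for Boc (adjusted p = 0.0137). MS-275 was accompanied by 0.667 times the crotonate mean of Gas1 (log2 difference -0.57, limma adjusted p = 1.6e-05) and 0.721 times that of Smo (-0.46, adjusted p = 4.2e-06). Gli2 was lower by the same test (-0.49, adjusted p = 0.0357), a call that ended in 6 of the fits that left out 1 library. Ptch1 was higher in every MS-275 library than in any crotonate library, with a difference of 0.16 (adjusted p = 0.0575) that passed when the replicate number was added as a block (adjusted p = 0.0386). Libraries of the 2 treatments did not overlap for 6 of the 8 genes, against 43.3% of all. Gli3 (-0.06, adjusted p = 0.645) and Hhip (0.04, adjusted p = 0.78) did not pass, and the doses of the compounds differ in kind, so these values compare the 2 treatments as given.

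Among the wider pathway, 10 of 13 genes for ligands and their release passed the filter. Of these, 6 reached 1 TPM in fewer than 4 control libraries, Shh, Scube1, Scube3, Gpc3, Gpc5 and Lrp2, so they passed through treated libraries, and no count over the list and no test against the control is given for them. Shh had 1.56 ± 0.34 TPM with crotonate, 1.48 ± 0.409 TPM with MS-275 and 0.914 ± 0.134 TPM in the control (SD, n = 4 each). Dhh, the ligand known from testis and peripheral nerve, averaged 8.36 ± 1.11 TPM with crotonate, 10.7 ± 0.419 TPM with MS-275 and 3.26 ± 0.72 TPM in the control, and its control libraries (2.72 to 4.32 TPM) lay below all treated ones. It rose by 1.14 with crotonate (limma adjusted p = 6.5e-06) and by 1.47 with MS-275 (adjusted p = 2.3e-07). Ihh, the third ligand, stayed below 1 TPM in every library and was not tested.

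Gpc3, a glypican that binds Hedgehog ligand and limits signalling, averaged 16.4 ± 1.16 TPM with crotonate, 9.82 ± 1.69 TPM with MS-275 and 0.859 ± 0.368 TPM in the control. Scube1, a secreted relative of the ligand-release factor Scube2, averaged 5.81 ± 0.765, 9.04 ± 1.44 and 0.757 ± 0.341 TPM in crotonate, MS-275 and control cells. Between the treatments, Adam17, a sheddase, was higher with MS-275 than with crotonate (54.1 ± 1.33 against 42.5 ± 0.699 TPM, limma adjusted p = 1e-05). Lrp2, an endocytic receptor of Shh, averaged 1.78 ± 0.285 TPM with MS-275 and 0.852 ± 0.121 TPM with crotonate, and it passed the filter through the MS-275 libraries alone, so no test is given. Gpc3 was lower with MS-275 than with crotonate (-0.70, limma adjusted p = 0.00161), and so was the glypican Gpc5 (2.52 ± 0.769 against 4.21 ± 0.462 TPM, adjusted p = 0.0122).

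Genes that carry the signal from Smo to the Gli proteins moved in both directions. Of 30 tested, crotonate raised 6 and lowered 2 (median 0.01), MS-275 raised 9 and lowered 10 (median -0.04), and between MS-275 and crotonate 4 were higher and 10 lower. Over all tested genes 32.3% were higher and 15.9% lower with crotonate, 37.4% and 27.6% with MS-275, and 19.3% and 27.4% between the treatments. The 8 calls for crotonate numbered 17 after median-of-ratios scaling and 13 after quantile normalization. Evc, a ciliary partner of Smo, rose by 0.49 with crotonate (limma adjusted p = 2.2e-05). Cul1, the cullin of the ligase that processes Gli proteins, fell by 0.27 with crotonate (adjusted p = 0.0024) and by 0.78 with MS-275 (adjusted p = 1.7e-07), while Btrc, the substrate adaptor of that ligase, rose by 0.24 (adjusted p = 0.00177) and 0.26 (adjusted p = 6.9e-04). Cul3, which acts on Gli proteins with Spop, fell by 0.20 with crotonate (adjusted p = 0.041). Grk2, the kinase that phosphorylates active Smo, fell by 0.54 with MS-275 (limma adjusted p = 8.3e-07), and Csnk1e, a casein kinase, was higher with MS-275 than with crotonate by 0.26 (adjusted p = 0.00255). Sufu, the cytoplasmic inhibitor of Gli proteins, had 22.6 ± 0.145 TPM with crotonate, 24.4 ± 2.7 TPM with MS-275 and 25.7 ± 1.74 TPM in the control, and did not pass in any contrast (adjusted p = 0.0629, 0.365 and 0.295).

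Of 44 genes for the primary cilium and its transport machinery, crotonate raised 15 and lowered 3 and MS-275 raised 15 and lowered 5. These shares were near or below those of all tested genes, 32.3% higher and 15.9% lower with crotonate and 37.4% and 27.6% with MS-275. Arl3, a ciliary GTPase, averaged 220 ± 2.48 TPM with crotonate, 231 ± 3.5 TPM with MS-275 and 150 ± 4.33 TPM in the control (limma adjusted p = 3.5e-08 and 2.5e-09 against the control). Ttc21b, a part of the complex that carries cargo back down the cilium and a restraint on Hedgehog signalling, rose by 0.73 with crotonate (adjusted p = 6.5e-06), and Ttbk2, a kinase needed to start cilia, rose by 0.74 with MS-275 (adjusted p = 3.2e-07). Ift27 fell by 0.17 with crotonate (adjusted p = 0.0109) and by 0.63 with MS-275 (adjusted p = 1.8e-07), and Ift74, like Ift27 a part of the complex that carries cargo into the cilium, fell by 0.20 with crotonate (adjusted p = 0.0154). Cc2d2a, a protein of the ciliary gate, fell by 0.58 with MS-275 (adjusted p = 4.3e-06). Kif3a, a motor subunit of ciliary transport, was higher with MS-275 than with crotonate by 0.42 (adjusted p = 2.2e-04). Between those treatments 8 of the 44 cilium genes were higher and 6 lower, against 19.3% and 27.4% of all tested genes.

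Genes known in other settings to be induced by Hedgehog signalling were called in both directions. Of 27 such genes 20 passed the filter, and of those crotonate raised 5 and lowered 5, MS-275 raised 7 and lowered 10, and between MS-275 and crotonate 4 were higher and 8 lower. The backgrounds for these contrasts were 32.3% higher and 15.9% lower with crotonate, 37.4% and 27.6% with MS-275, and 19.3% and 27.4% between the treatments. Among the 20, 3 reached 1 TPM in fewer than 4 control libraries. Ccnd2, cyclin D2, averaged 1027 ± 23.4 TPM with crotonate, 1087 ± 18.4 TPM with MS-275 and 710 ± 9.24 TPM in the control (limma adjusted p = 1.6e-08 and 1.1e-09 against the control). Sfrp1, a secreted Wnt antagonist, rose by 1.65 with crotonate (adjusted p = 4.6e-08) and by 1.44 with MS-275 (adjusted p = 3e-08). Foxm1, a transcription factor of mitotic genes, fell by 0.71 with crotonate (adjusted p = 4.2e-05) and by 1.77 with MS-275 (adjusted p = 5.7e-09). All 15 mitotic genes fell with MS-275 and 14 of 15 fell with crotonate, with medians of -1.53 and -0.56, and their part in the fall of Foxm1 was not tested.

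Rab34, a GTPase of the ciliary pathway, fell by 0.54 with crotonate (limma adjusted p = 9e-05), and Bmi1, a Polycomb protein, fell by 0.88 with MS-275 (adjusted p = 1.2e-08). Ccne1, cyclin E1, was lower with MS-275 than with crotonate (24.1 ± 1.75 against 41.9 ± 2.03 TPM, limma adjusted p = 1.1e-06). Hsd11b2, a steroid dehydrogenase, averaged 1.25 ± 0.272 TPM with MS-275 and 0.235 ± 0.222 TPM with crotonate, and it too passed the filter through the MS-275 libraries alone.

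The pattern of Ptch1 over the 12 NSPC libraries was most like those of Atp6ap1, Acap3 and Vac14. Likeness was the root mean square difference of log2(TPM + 1) after each gene's own mean was removed, and it was 0.0648 for Atp6ap1, 0.0726 for Acap3 and 0.0788 for Vac14, against a spread of 0.185 for Ptch1 itself. Atp6ap1 averaged 104 TPM with crotonate, 109 TPM with MS-275 and 136 TPM in the control, lower in both treatments as Ptch1 was.

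In forebrain explants, per the authors' deposited table, 2 of the 9 genes were higher and 3 lower with crotonate, and the other 4 did not pass an adjusted p of 0.05. Of 14498 genes with an adjusted p below 1 there, 20.3% passed (10.5% higher and 9.76% lower), again from the authors' deposited table. Cdon was higher in the authors' deposited table (log2 fold change 0.25, SE 0.0312, adjusted p = 1.8e-13), and so was Gli3 (0.13, SE 0.0388, adjusted p = 0.00482), the direction both had in NSPCs. Ptch1 was lower in the authors' deposited table (-0.21, SE 0.0468, adjusted p = 1.6e-04), as it was in NSPCs. The authors' deposited table gave Gas1 as lower (-0.33, SE 0.0648, adjusted p = 5.0e-06), where the NSPC difference with crotonate did not pass. Hhip was lower in the authors' deposited table (-0.71, SE 0.227, adjusted p = 0.0118, mean normalized count 59.0), whereas it was higher in NSPCs, and the difference between the 2 systems was not tested.

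The remaining members in the authors' deposited table were Smo (-0.10, adjusted p = 0.186), Gli1 (-0.26, adjusted p = 0.261), Gli2 (0.09, adjusted p = 0.351) and Boc (-0.07, adjusted p = 0.411). The direction of all explant values, crotonate over control, is known only from the name of the authors' deposited table. Genes of the ventral forebrain stood lower there, with 11 of 12 markers lower and 0 higher in the authors' deposited table, among them Nkx2-1 (-0.99, adjusted p = 8.2e-55) and Olig2 (-0.80, adjusted p = 8.8e-09). Mitotic genes were lower for 12 of 15 in the authors' deposited table. Of the neural stem and radial glia markers, 8 of 12 were lower and 1 higher in the authors' deposited table, with Sox2 at -0.33 (adjusted p = 2.8e-23), and of the mesenchyme markers 3 of 7 were lower and 0 higher. The part of these shifts in the Ptch1, Gas1 and Hhip values was not tested.

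Other pathway genes were also listed for the explants. Over all genes there, 10.5% were higher and 9.76% lower at an adjusted p under 0.05 in the authors' deposited table. In the authors' deposited table Shh had a log2 fold change of -0.46 (adjusted p = 0.0538). Sufu (0.11, adjusted p = 0.167) did not pass in the authors' deposited table, and no adjusted p was computed for Ihh and Dhh. Of the ligand and release genes, 1 of 10 was higher and 3 were lower in the authors' deposited table, with Scube1 at 0.21 (adjusted p = 5.5e-06), Gpc1 at -0.18 (adjusted p = 7.2e-12) and Lrp2 at -0.82 (adjusted p = 1.5e-04). Signal transduction genes were 3 higher and 4 lower of 30 in the authors' deposited table, near the shares over all genes. Mosmo, an inhibitor of Smo, stood at 0.17 (adjusted p = 0.00575) in the authors' deposited table. Kif7, a ciliary kinesin that scaffolds Gli proteins, stood at 0.30 (adjusted p = 0.0287) in the authors' deposited table. The authors' deposited table gave Gnas at -0.13 (adjusted p = 1.0e-18) and Prkaca at -0.23 (adjusted p = 1.8e-07). Gnas and Prkaca encode a G protein subunit and a protein kinase A subunit that favour the Gli repressors.

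Cilium genes were 3 higher and 1 lower of 44 in the authors' deposited table, below the shares over all genes (10.5% and 9.76%). The authors' deposited table gave Ttbk2 at 0.23 (adjusted p = 5.3e-09), Arl13b at 0.33 (adjusted p = 3.4e-04) and Tctn2 at -0.33 (adjusted p = 0.0238). Among 20 genes known to be induced by Hedgehog, 10 were lower and 2 higher in the authors' deposited table, against backgrounds of 9.76% and 10.5%. Ccnd1, cyclin D1, stood at -0.46 (adjusted p = 4.6e-28) in the authors' deposited table, and Nkx2-1, given above, is in this list as well as among the ventral markers. The 2 higher genes in the authors' deposited table were Bcl2 at 0.36 (adjusted p = 5.9e-07) and Nr2f2 at 0.15 (adjusted p = 3.1e-04).

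Forebrain tissue had more RNA of the 3 Gli factors and of Boc than control NSPCs. With 1 forebrain library no test was possible, and a gene was counted when it was at least 2-fold above or below the control mean and outside the control range. Gli1 had 7.15 TPM in forebrain and 0 to 0.0635 TPM in control NSPCs, a log2(TPM + 1) difference of 2.99. Gli2 had 17.3 TPM in forebrain and 1.04 to 2.90 TPM in control NSPCs, and Gli3 had 34.4 TPM in forebrain and 3.76 to 4.27 TPM in control NSPCs, 10.4 and 8.56 times the control means. Boc had 28.2 TPM in forebrain and 2.88 to 3.39 TPM in control NSPCs, 9.0 times the control mean. These are 4 of 9 genes, against 24.8% of 15817 genes that were as far above, and 0 of 9 were as far below, against 10.6%.

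Levels of the other 5 genes stayed within 2-fold. Ptch1 had 22.0 TPM in forebrain and 21.5 to 26.5 TPM in control NSPCs, Smo 47.6 TPM in forebrain and 36.5 to 39.3 TPM in control NSPCs, and Gas1 51.7 TPM in forebrain and 43.2 to 50.4 TPM in control NSPCs. Cdon had 58.4 TPM in forebrain and 33.4 to 39.6 TPM in control NSPCs, while Hhip was at 0.817 TPM in forebrain and 1.53 to 1.66 TPM in control NSPCs. After median-of-ratios scaling the differences of Gli1, Gli2, Gli3 and Boc were 2.78, 2.56, 2.53 and 2.54, and that of Gas1 changed sign (0.13 before, -0.17 after). Ventral markers summed to 1460 TPM in forebrain and 684 to 717 TPM in control NSPCs, and neuronal markers to 3679 TPM in forebrain and 977 to 1061 TPM in control NSPCs, and the part of cell makeup in these values was not tested. Shh had 5.49 TPM in forebrain, against 0.914 ± 0.134 TPM in control NSPCs, and Dhh 0.113 TPM, against 3.26 ± 0.72 TPM.

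**Figure D3:**
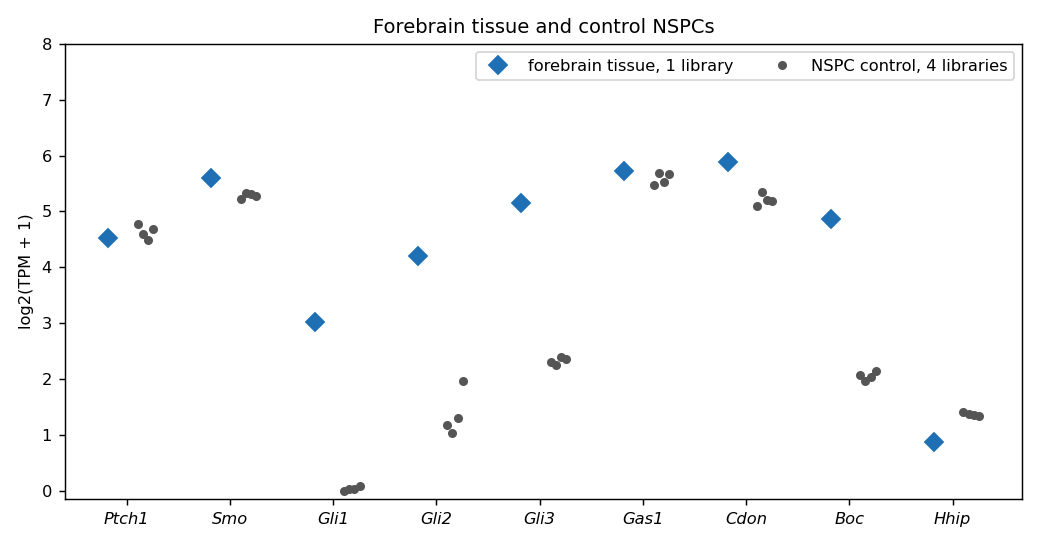
Level as log2(TPM + 1) of the 9 genes in the 1 forebrain library (diamonds) and the 4 control NSPC libraries (points). Gli1, Gli2, Gli3 and Boc are higher in forebrain by 2.82 to 2.99, and Ptch1 and Gas1 lie close to the NSPC points.

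Histone acylation peaks were next counted in each gene or within 1 kb of it, in the 8 peak lists the authors deposited. Each list comes from 1 library with unknown depth and is much shorter for MS-275 than for the other treatments (5845 Kcr and 7555 Kac peaks with MS-275, 23301 and 21616 with crotonate, 17669 and 23427 in the control), so presence and absence are given with no test. With Kcr, 8 of the 9 genes had a peak with crotonate, 4 with MS-275 and 7 in the control, beside 74.7%, 23.4% and 64.6% of the 13773 tested genes with a known position. With Kac the counts were 7, 3 and 7 of 9, beside 70.3%, 25.4% and 73.0%. The 9 genes are longer than most, with a median of 73.8 kb against 22.7 kb, which gives them more room for a peak. In forebrain 7 had an H3K9cr peak and 9 an H3K9ac peak, beside 78.1% and 88.2%.

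**Figure D4:**
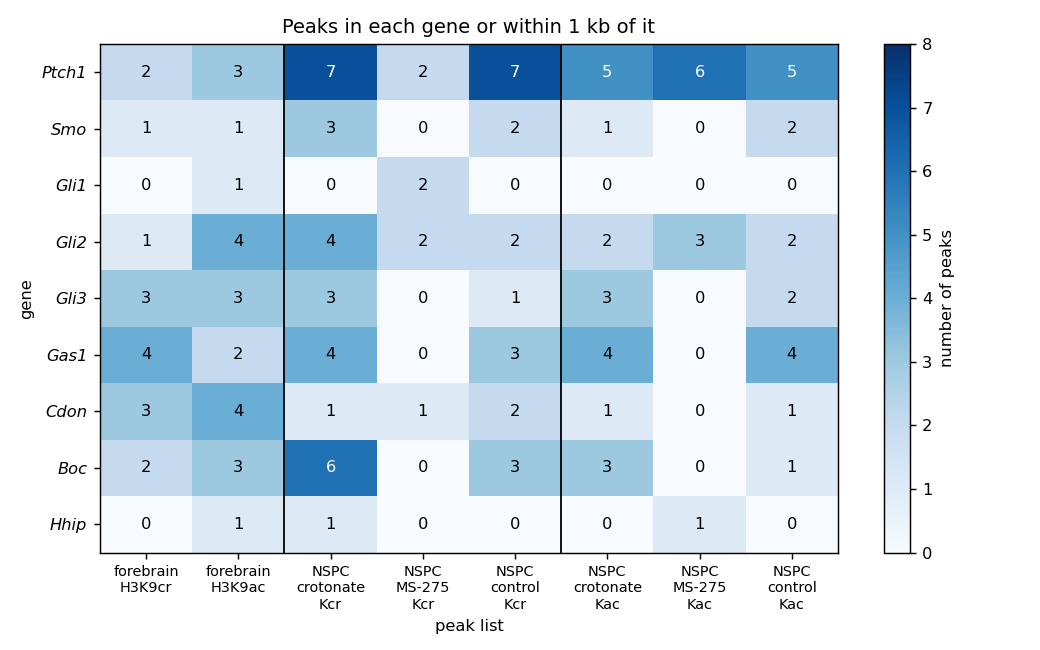
Number of peaks in each gene or within 1 kb of it (cell values and colour, 0 to 8) for the 9 genes (rows) in 2 forebrain and 6 NSPC peak lists (columns). Ptch1 has 7 Kcr peaks with crotonate, 2 with MS-275 and 7 in the control, and Gli1 has Kcr peaks with MS-275 alone among the NSPC lists.

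The crotonate Kcr list held a peak at each of the 7 genes that had one in the control list, and at Hhip besides. Hhip was thus 1 of 9 genes with a Kcr peak with crotonate alone, against 15.9% of all genes, and 0 of 9 had one in the control alone, against 5.82%. Its peak (chromosome 8, 80057828 to 80058011, 184 bp) lies over the start of the gene and 53 of its bases fall in the promoter window above, where they stand in capitals. For Kac, 0 of 9 genes had a peak in the crotonate list alone (8.40% of all genes) and 0 in the control list alone (11.1%). Peak counts within genes also differed, with 6 Kcr peaks at Boc with crotonate and 3 in the control, 3 and 1 at Gli3, and 4 and 2 at Gli2. A long non-coding RNA, Gm30064, lies inside Boc (44530373 to 44537129). The crotonate peaks that start at 44530376 and 44533781 and the control peak that starts at 44530359 overlap it. Over the 9 genes, 17 of 29 crotonate Kcr peaks overlapped a control peak and 15 of 20 control peaks overlapped a crotonate peak.

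Kcr covered 4177 bp of Ptch1 with crotonate, 663 bp with MS-275 and 2978 bp in the control, so the gene whose RNA fell with both treatments had Kcr peaks under both. At Boc the covered length was 1692 bp with crotonate, 0 bp with MS-275 and 773 bp in the control, and at Gli3 990, 0 and 353 bp in the same order. Cdon, whose log2 difference with MS-275 was the highest among the 8 tested genes, had 1 Kcr peak with crotonate (296 bp), 1 with MS-275 (404 bp) and 2 in the control (387 bp in all). These lie at the lower end of the gene (position 35421528 on chromosome 9), which is its 5′ end, as Cdon is on the + strand. The start site that the RefSeq promoter table gives, 35452076, lies inside the gene, and no peak covered it.

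With MS-275, Smo, Gli3, Gas1 and Boc had no Kcr peak although the control had one, 4 of 9 genes against 44.6% of all genes. For Kac these were Smo, Gli3, Gas1, Cdon and Boc, 5 of 9 against 49.8%, shares near the background of the short MS-275 lists. Of these, Smo and Gas1 RNA fell with MS-275, and Boc, Gli3 and Cdon RNA rose. A Kcr peak with MS-275 alone was found at Gli1, 1 of 9 genes against 3.41% of all. Both peaks lie just past the upper end of Gli1 (position 127341579 on chromosome 10), at 127341760 to 127342145 and 127342564 to 127342790, 181 and 985 bp away from it. Of the NSPC lists the MS-275 Kcr list was the only one with a peak near Gli1, the treatment in which all its libraries exceeded the control. For Kac, Hhip had a peak with MS-275 alone (1 of 9, against 2.12%), 201 bp wide and 2153 bp inside the gene from its upper end.

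**Figure D5:**
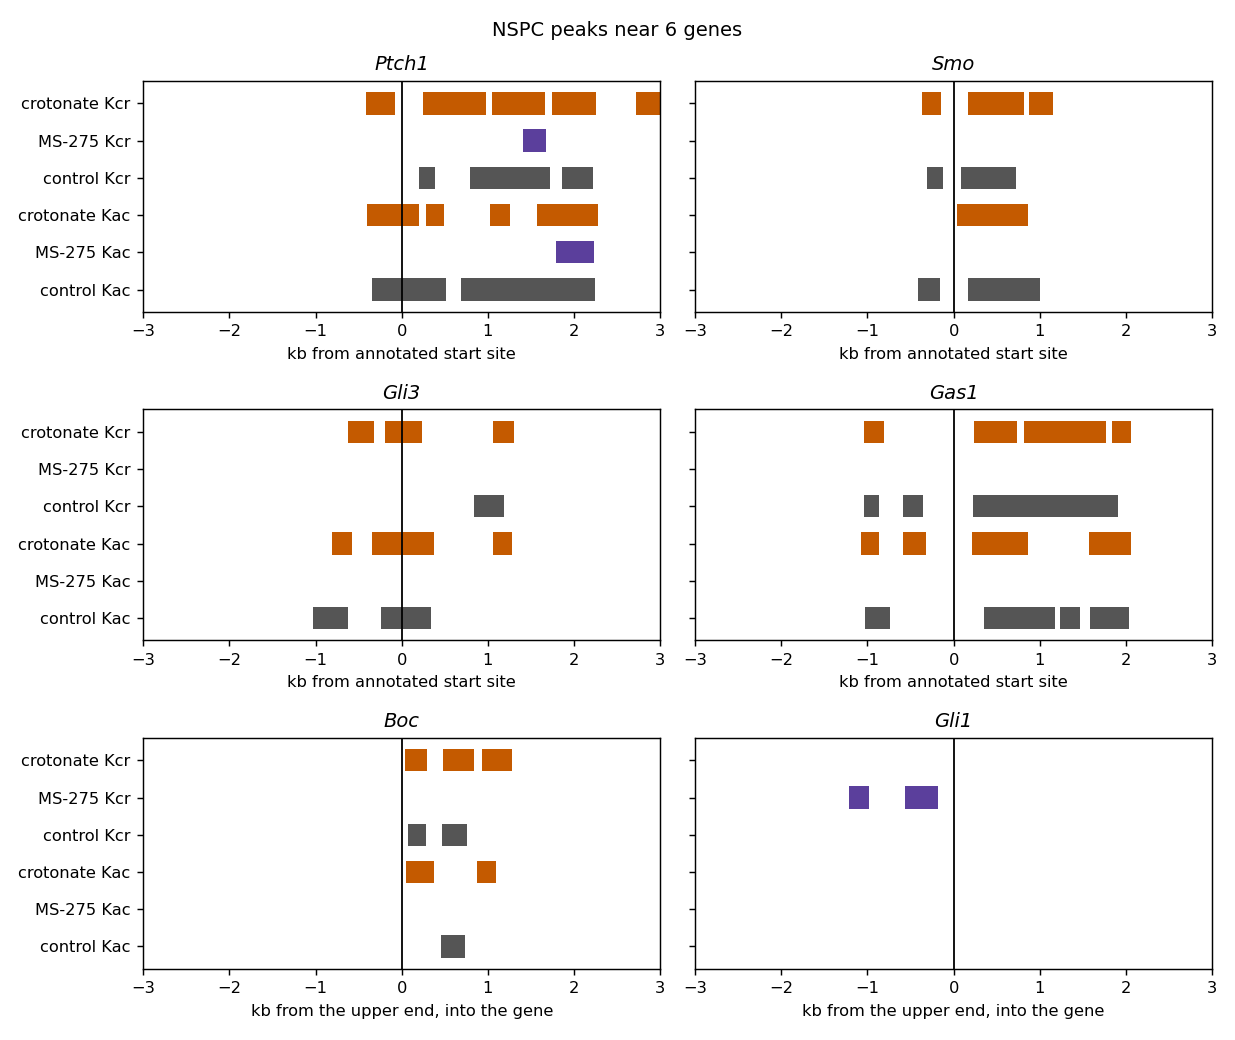
NSPC peaks of Kcr and Kac (bars, to scale) within 3 kb of the annotated start site of Ptch1, Smo, Gli3 and Gas1, in the direction of transcription, and of the upper end of Boc and Gli1, for which positive distances run into the gene. Gli3, Gas1, Smo and Boc show bars with crotonate and in the control and none with MS-275, and the Gli1 bars are 181 and 985 bp outside the gene. Peaks near the upper end of Ptch1 lie beyond the range drawn.

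In forebrain the strongest H3K9ac peak of each gene, by the fold enrichment the authors' peak caller gave, was 39.3 for Smo, 34.0 for Gli3, 30.8 for Boc, 23.8 for Cdon, 17.2 for Gas1 and 16.5 for Ptch1, all above the median of 12.6 over that list. Gli2 (12.1), Hhip (4.01) and Gli1 (3.50) were below it. Hhip and Gli1 thus had the weakest forebrain acetylation of the 9, with RNA levels of 0.817 and 7.15 TPM that were also the lowest of the 9 there. For H3K9cr the strongest peaks were 13.4 for Boc, 13 for Gli3, 9.96 for Cdon, 9.54 for Smo and 9.0 for Ptch1, above the list median of 8.38, with Gas1 (7.49) and Gli2 (3.80) below it and no peak at Gli1 or Hhip. A forebrain H3K9ac peak covered all 300 bases of the promoter windows of Ptch1, Smo, Gli2, Gli3 and Hhip, and 55 of Gas1.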

How the data were processed

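RNA and ChIP libraries were made from mouse forebrain, explants and NSPCs. The submitters' processing notes name Salmon 1.0.0 and DESeq2 1.26.0 for RNA, Bowtie2 2.3.5.1 and MACS2 2.2.5 for ChIP, and build GRCm38. The TPM values were made by the authors, and columns sum to 998182 to 999495. For the explants the authors deposited a signal column (mean normalized counts), log2 fold changes with SE, a score (fold change over SE), p-values and adjusted p-values, written as 1 where none was computed. The deposited forebrain peak lists hold a score, a fold enrichment (a ratio) and -log10 p and q, and the deposited NSPC lists positions alone, with 1 library per list by the titles.

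Samples were grouped by title, and 0 columns of sample values were left unused. Genes that reached 1 TPM in 4 or more of 12 NSPC libraries were tested on log2(TPM + 1) by limma 3.58.1 (R 4.3.3; trend, 3 groups in 1 fit, two-sided, Benjamini-Hochberg). Fold changes on this scale understate those of low genes. Scripts were tested on simulated data. The members, lists and tests were chosen with earlier results of these data known. Named genes are all members, Shh, Ihh, Dhh, Sufu, the 2 genes per list and direction with the smallest adjusted p, and the 3 genes most like Ptch1, apart from some genes not reported here. Every pair of NSPC libraries with the same replicate number deviated together (12 correlations, 0.119 to 0.241, and -0.197 to 0.0993 for the 36 others). This is a hint from the data that the numbers pair the samples. The main fit and the exact tests took the libraries as unpaired. Gene positions (GRCm38.p6, RefSeq) were found for 92.7% of tested genes. Tables and plots were made in Python 3.11.15 (pandas 2.3.3, matplotlib 3.10.9) and exact tests in SciPy 1.17.1. IgG, input and bisulfite libraries were not analysed here. Alternatives covered pseudocount, filter, scaling, threshold, peak rules, the replicate block and leaving out each library.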

Additional observations from a re-analysis of the deposited data

How the results depend on the processing

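Most values kept their direction and side of the threshold. Quantile normalization left 2 of the 6 calls among the 9 genes for crotonate, and it reversed Gli3 with crotonate (-0.03) and with MS-275 (-0.13), Gli2 with MS-275 (-0.39) and Hhip between MS-275 and crotonate (-0.04). Median-of-ratios scaling reversed Smo (-0.03) and Gas1 (-0.10) with crotonate, values that passed in neither setting. The cause was not tested. Leaving out 1 library reversed only differences near 0, namely Gas1 with crotonate (-0.02 without control replicate 1, -0.01 without crotonate replicate 2; highest 0.06), Gli2 with MS-275 (-0.01 without control replicate 2; highest 0.31 without control replicate 4) and Hhip between treatments (-0.00 without crotonate replicate 3; highest 0.11). Smo gained a call with crotonate without crotonate replicate 3 (adjusted p = 0.0495). For Gli2 between treatments the call ended in 6 such fits (adjusted p = 0.0561 to 0.0894) and without the filter (0.0798). Gli1 between treatments had an adjusted p of 0.0262 in limma without the filter and an exact permutation p of 0.0857, a test chosen after seeing the data. With the replicate number as a block, Ptch1 between treatments passed (difference 0.16, adjusted p = 0.0386), and no other call among the 9 genes changed.

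Signal transduction calls for crotonate numbered 8 as reported, 17 after median-of-ratios scaling and 13 after quantile normalization. At an adjusted p of 0.01, cilium calls for crotonate numbered 11, signal transduction calls 11 for MS-275 and 8 between treatments, and members called between treatments 3. For the ligand and release genes no count against the NSPC control is given at any filter. Of the 10 tested, 6 had passed the filter of 1 TPM through treated libraries. Peaks of at least 500 bp (forebrain, -log10 q of at least 10) left 3, 0 and 3 members with a Kcr peak with crotonate, with MS-275 and in the control, and 4, 0 and 4 with a Kac peak. The same limit left 0 members with a peak in a treated list alone. Within the gene itself, 2 members had an MS-275 Kcr peak and 0 had one with MS-275 alone. Within 10 kb, 2 members had a Kcr peak and 1 a Kac peak with crotonate alone. Within 50 kb, 5 members had an MS-275 Kac peak and 0 a Kcr peak with MS-275 alone. With an overlap of at least 50% of the peak, 2 control Kcr peaks and 1 control Kac peak overlapped an MS-275 peak. Depth is unknown and limits what the absence of a peak or of Gli1 reads can show.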
